A study of Mus musculus with 6 samples.

Results

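The extracellular matrix genes described here are 47 genes that encode collagens, laminins and other matrix glycoproteins, proteoglycans, and the enzymes and inhibitors that remodel the matrix. They were chosen by name and function, with earlier results of these data known. Every one was found among the 54134 genes of the count table. RNA was measured by poly(A) RNA-seq in 6 tailbuds of C57BL/6 mouse embryos at E10.5, with 1 library per embryo. Of these, 4 embryos were wildtype, and whether they came from injected embryos is not stated in the sources used here. The 2 Cdx2P:Nr6a1 embryos were transient transgenics made by pronuclear injection, each with its own insertion. In them the Cdx2P promoter drove the long isoform of Nr6a1, an orphan nuclear receptor that is normally cleared from the tailbud before this stage. The comparison asks how matrix genes differ when Nr6a1 persists in the tailbud. No stable line stood behind the transgenic libraries, so insertion site and copy number can differ between them, and both embryos inherit the limits of the Cdx2P promoter, which acts in the posterior embryo.

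The extracellular matrix is a network of secreted proteins and sugars. Basement membranes are thin sheets built from laminins, collagen IV, nidogens and heparan sulphate proteoglycans, and they separate the neural tube, gut and surface ectoderm from mesenchyme. Fibronectin surrounds the presomitic mesoderm and is needed for somites to form. Fibrillar collagens belong mostly to mesenchyme and cartilage, and hyaluronan bound to versican fills soft embryonic tissue. Metalloproteases of the Mmp and Adamts families cut these components, and Timp proteins inhibit the proteases.

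The libraries held 44073460 to 67183802 counts on genes, and Cdx2P:Nr6a1 replicates 1 and 2 were the lowest and the highest. Nr6a1 had 3.91, 5.18, 5.53 and 6.89 CPM (counts scaled to the total of the library) in wildtype and 23.4 and 33.8 CPM in Cdx2P:Nr6a1, so every library matched its label. Expression from the Y chromosome was seen in 1 of the 4 wildtype and 1 of the 2 Cdx2P:Nr6a1 libraries. Of the tailbud markers, all 10 passed the filter. Their summed CPM was 2494 to 2783 in wildtype and 2402 and 2746 in Cdx2P:Nr6a1. Cdx2 and Cyp26a1 were called higher and Hoxb13 lower. By DESeq2 and the likelihood ratio test of edgeR, Nkx1-2 was also called higher and Tbx6 lower. For 8 of 9 marker lists of the tailbud and of neighbouring or other cell types, the summed CPM overlapped between genotypes. The exception was the neural tube list, at 103 to 116.7 CPM in wildtype and 116.9 and 128 in Cdx2P:Nr6a1, with Sox1 and Sox3 called higher and 5 of its 10 genes, Pax6, Nkx6-1, Olig2, Neurog2 and Dbx1, under 1 CPM in every library. Ncam1, which was not called, held most of the neural tube sum (mean 99.3 CPM in wildtype and 101.9 in Cdx2P:Nr6a1). The sum thus says little of the other genes of its list. The part of neural cells in the results below was not tested. In bulk tissue, fewer cells of a type and less RNA per cell cannot be told apart.

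Within wildtype tailbuds, Fn1, which encodes fibronectin, was the most abundant of the 47 genes per length. Its level was 178 ± 8.72 CPM per kb of exon (SD, n = 4), and the next gene, Col4a1, stood at 59.7 ± 3.12 CPM per kb. Behind them came Lamc1 at 53.0 ± 0.795, Mmp2 at 50.7 ± 1.33 and Col18a1 at 50.3 ± 4.51 CPM per kb, of which Lamc1 lay above Mmp2 beyond their spread and Col18a1 did not differ from either beyond its own. Lama1, Sparc, Vcan and Agrn lay together between 43.2 and 44.99 CPM per kb. Most of the highest places were thus held by basement membrane genes. The lowest levels per length were those of Tnc, at 0.102 ± 0.0107, and Col14a1, at 0.271 ± 0.0256 CPM per kb. Together the 47 genes took 0.812% to 0.871% of all counts in wildtype and 0.781% and 0.836% in Cdx2P:Nr6a1 libraries, and the groups overlapped. Fn1 alone made up 24.1% to 25.3% of the counts of the 47 genes in wildtype and 21.6% and 23.5% in Cdx2P:Nr6a1, where the groups did not overlap.

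**Figure D1:**
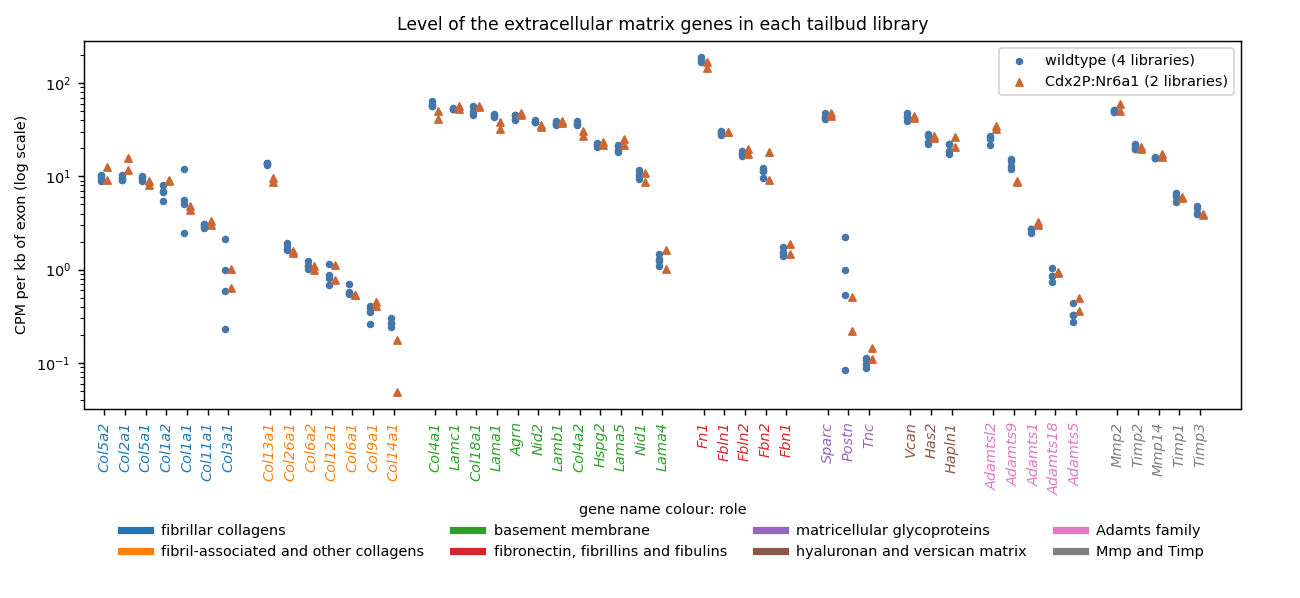
Level of each of the 47 matrix genes, as CPM per kb of exon on a log axis, grouped by role (colour of the gene name). Circles are the 4 wildtype and triangles the 2 Cdx2P:Nr6a1 libraries. Fn1 stands highest at 178 CPM per kb in wildtype, and Col1a1, Col3a1 and Postn spread widely between the wildtype libraries.

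The filter asked for more than 10 counts and more than 2 CPM in at least 2 libraries and kept 12733 genes and 45 of the 47 matrix genes. Col14a1 and Tnc failed this filter. With edgeR's quasi-likelihood test and Benjamini-Hochberg adjustment over all genes tested (the adjusted p is given as FDR, and the error of a log2 fold change as its standard error, SE), 5 of the 45 matrix genes (11.1%) were called at an adjusted p under 0.05, where the share of all genes was 1.59%. Lower in Cdx2P:Nr6a1 were Col13a1, Col4a2, Lama1 and Adamts9, 8.89% of the 45 against 0.809% of all genes. The gene called higher was Adamtsl2, 2.22% of the 45 against 0.785%. The genes were chosen with earlier results of these data known, so these shares are not those of an independent list. An unadjusted p under 0.05 was reached by 5 genes that were higher, where 5.54% of all genes reached it in that direction, and by 8 that were lower, where 4.99% did. The values of the genotypes did not overlap for 15 of the 45 (33.3%), compared with 18.6% of all genes. Of these, 5 were higher in Cdx2P:Nr6a1, as were 10.1% of all genes, and 10 were lower, as were 8.48%. The likelihood ratio test of edgeR called 7 of the 45, where it called 3.15% of all genes.

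The list did not move in one direction. Of the 45 genes, 26 had a positive and 19 a negative log2 fold change. Their median log2 fold change was 0.05, and that of all genes was -0.001. Set against the wildtype mean, 16 genes were above it in both Cdx2P:Nr6a1 libraries, 15 below it in both, and 14 above it in one library and below it in the other. By role, the median log2 fold change was 0.10 for the 7 fibrillar collagens, -0.12 for the 6 other collagens tested, 0.03 for the 12 basement membrane genes and 0.07 for the 5 genes of fibronectin, fibrillins and fibulins. It was 0.07 for the 3 genes of the hyaluronan and versican matrix, -0.68 for the 2 matricellular genes tested, 0.22 for the 5 of the Adamts family and -0.04 for the 5 of the Mmp and Timp families. The other collagens together took 0.0103% to 0.0112% of all counts in wildtype and 0.00830% and 0.00837% in Cdx2P:Nr6a1, the only role whose summed share did not overlap between genotypes.

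**Figure D2:**
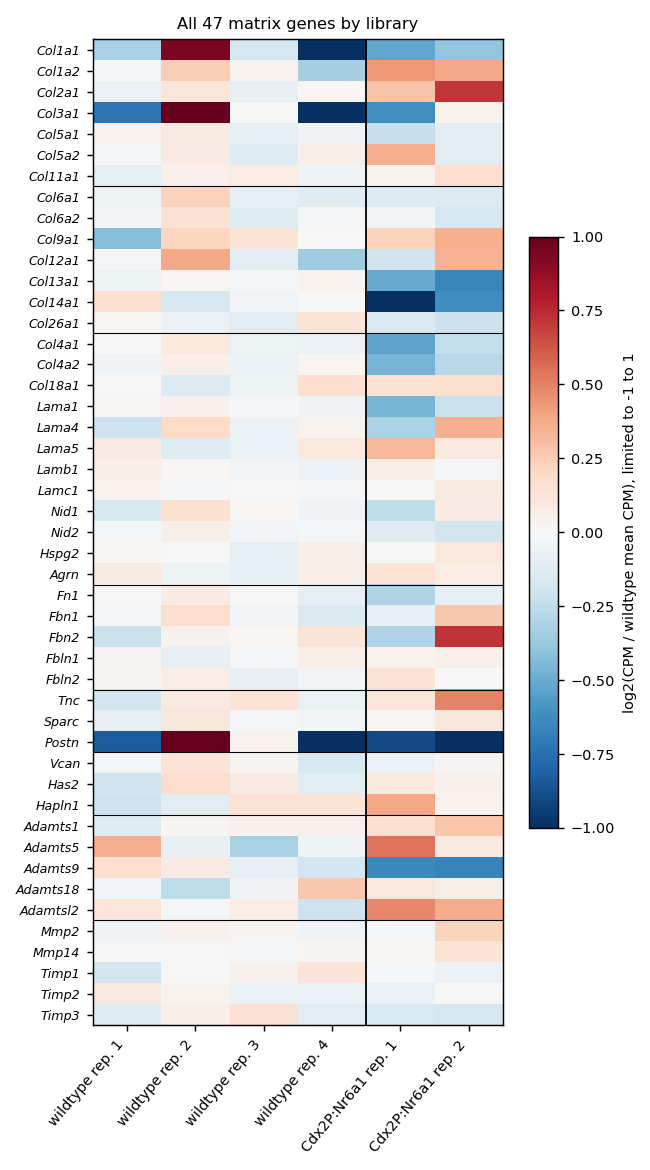
Each row is 1 of the 47 matrix genes and each column a library, and the colour gives log2 of CPM over the wildtype mean CPM, limited to -1 to 1. Black lines separate the roles and the genotypes. Blue fields on the right at Col13a1, Col4a1, Col4a2, Lama1 and Adamts9 are genes lower in both Cdx2P:Nr6a1 libraries, and wildtype replicates 2 and 4 stand apart at Col1a1, Col3a1 and Postn.

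**Figure D3:**
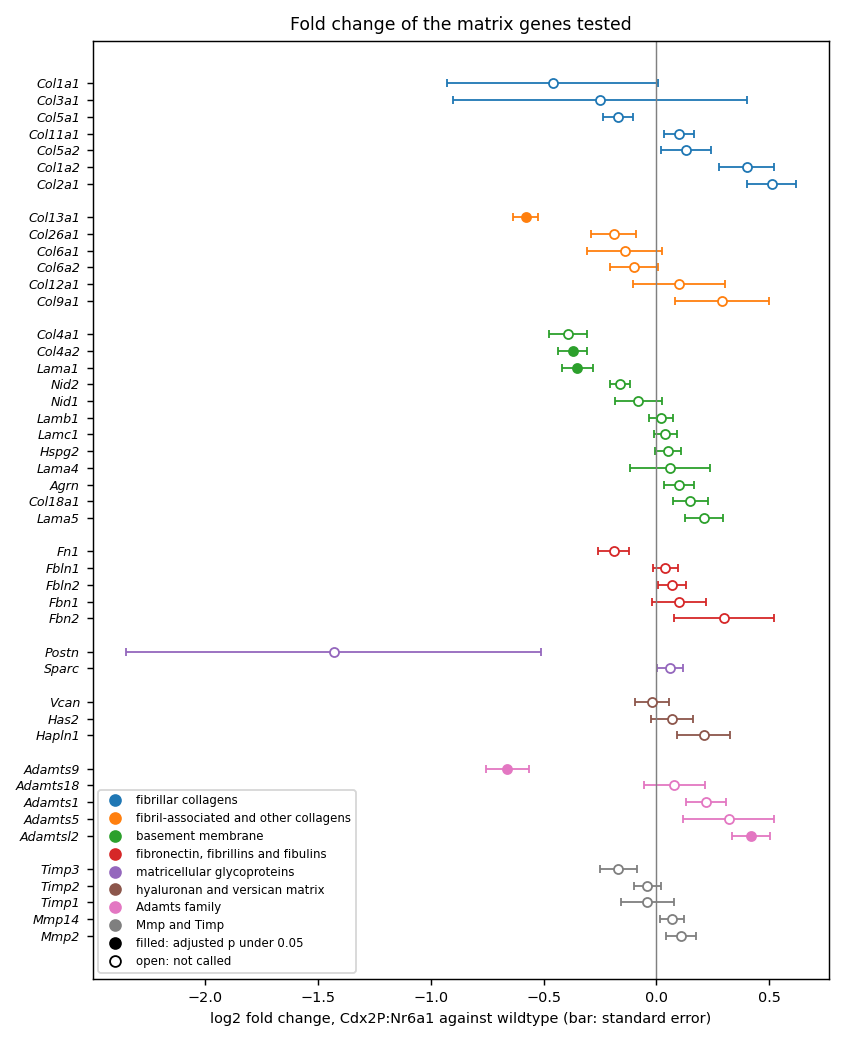
Log2 fold change of Cdx2P:Nr6a1 against wildtype for the 45 genes tested, with the standard error as the bar and the role as the colour. Filled points are the 5 genes called at an adjusted p under 0.05, and Postn at -1.43 has the widest bar.

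Within the basement membrane, the collagen IV chain Col4a2 and the laminin alpha chain Lama1 were lower in Cdx2P:Nr6a1 tailbuds, and edgeR's quasi-likelihood test called none of the other 10 genes. Col4a1 and Col4a2 encode the chains of the most widespread collagen IV. They lie head to head on chromosome 8, Col4a1 from 11198423 to 11312826 on the minus strand and Col4a2 from 11312805 to 11449287 on the plus strand. The window around both starts is shown because the genes share their start region and are read in opposite directions. It is chr8:11312801-11312830 of GRCm38 (RefSeq, plus strand), and capitals mark the 22 bases that lie between the start of Col4a2 on the left and that of Col4a1 on the right, both included.
Col4a1 and Col4a2 starts: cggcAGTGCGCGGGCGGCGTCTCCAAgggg

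Col4a2 had 241, 259, 237 and 250 CPM in wildtype and 178 and 204 CPM in Cdx2P:Nr6a1. Both transgenic libraries were below all wildtype libraries. The mean fell from 247 ± 9.89 (SD, n = 4) to 191 ± 18.1 (SD, n = 2) CPM, a log2 fold change of -0.37 ± 0.06 (SE, FDR = 0.0262, edgeR). The call was lost without wildtype replicate 2 or 4 (adjusted p = 0.0608 and 0.0654, edgeR) and without Cdx2P:Nr6a1 replicate 1, where the log2 fold change was -0.27 (adjusted p = 0.173). The 13 alternatives to this fit spanned an FDR of 2.57e-07 to 0.173.

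Col4a1 had 446, 478, 429 and 427 CPM in wildtype and 308 and 376 CPM in Cdx2P:Nr6a1. The groups did not overlap, and as for Col4a2 the lower value was in Cdx2P:Nr6a1 replicate 1. A log2 fold change of -0.39 ± 0.08 (SE, FDR = 0.0674, edgeR) was as large as that of Col4a2 but did not pass. With a library left out, Col4a1 ranged from -0.54 to -0.25. The likelihood ratio test, DESeq2, limma voom, the fit without a filter and the fit without Cdx2P:Nr6a1 replicate 2 called it, with an adjusted p of 4.32e-07 to 0.322 over the 13 alternatives. The level of Col4a1 over that of Col4a2, both per kb, was 1.64, 1.64, 1.61 and 1.51 in wildtype and 1.53 and 1.63 in Cdx2P:Nr6a1. This ratio therefore overlapped between genotypes (difference of log2 ratios -0.02, exact two-sided permutation test, p = 0.867).

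Lama1, on chromosome 17 from 67697265 to 67822645, encodes the laminin alpha chain of the earliest embryonic basement membranes. Its CPM was 431, 441, 424 and 417 in wildtype and 310 and 366 in Cdx2P:Nr6a1. Both transgenic libraries lay below a narrow wildtype range. The log2 fold change was -0.35 ± 0.07 (SE, FDR = 0.0494, edgeR), just under the threshold. It lay between -0.48 and -0.23 with a library left out. The call was lost with RLE normalisation (adjusted p = 0.0511), without any of the 4 wildtype libraries (0.0712 to 0.114) and without Cdx2P:Nr6a1 replicate 1 (0.215, edgeR). The 13 alternatives spanned an FDR of 1.04e-05 to 0.215.

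The partners of Lama1 in the laminin trimer were not called. Lamb1, the beta chain, had 389, 375, 364 and 357 CPM in wildtype and 389 and 367 in Cdx2P:Nr6a1, and the groups overlapped. Lamc1, the gamma chain shared by most embryonic laminins, had 448, 435, 436 and 433 CPM in wildtype and 437 and 465 in Cdx2P:Nr6a1. Their log2 fold changes were 0.02 ± 0.05 (SE, FDR = 0.960) and 0.04 ± 0.05 (SE, FDR = 0.903, edgeR). Lama5, the alpha chain of many later epithelia, had 243, 210, 219 and 247 CPM in wildtype and 290 and 246 in Cdx2P:Nr6a1. It did not pass (log2 fold change 0.21 ± 0.08, FDR = 0.382, edgeR) except without a filter (FDR = 0.0239), and the groups overlapped. Lama4, an alpha chain of vessels, stood at 13.3 to 17.6 CPM in wildtype and split in Cdx2P:Nr6a1, at 12.3 and 19.7 CPM.

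Ratios per kb put these chains side by side within each library. Lama1 over Lamc1 was 0.837, 0.882, 0.845 and 0.836 in wildtype and 0.617 and 0.684 in Cdx2P:Nr6a1. Lama1 over Lama5 was 2.12, 2.52, 2.31 and 2.02 in wildtype and 1.28 and 1.78 in Cdx2P:Nr6a1. For both ratios the transgenic libraries lay below all wildtype libraries, whereas Lamb1 over Lamc1 overlapped (0.686 to 0.724 against 0.743 and 0.659). The exact two-sided permutation test gave p = 0.0667 for each of the first 2, the smallest p that 15 arrangements of 2 against 4 libraries allow, and 0.111 after adjustment over 5 ratios. For Lamb1 over Lamc1 the exact permutation p was 0.8.

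The remaining basement membrane genes bind these networks together. Nid2, a nidogen that links laminin to collagen IV, had 199, 209, 197 and 198 CPM in wildtype and 183 and 176 in Cdx2P:Nr6a1. The groups did not overlap, but the log2 fold change of -0.16 ± 0.05 (SE, FDR = 0.147, edgeR) did not pass, although DESeq2 called it (FDR = 0.0363). Of its exon bases, 8.45% are shared with Rtraf on the opposite strand, an expressed gene, and reads there may be missing from its counts. Its relative Nid1 had 64.4 to 80.7 CPM in wildtype and 60.5 and 76.5 in Cdx2P:Nr6a1. Of the heparan sulphate proteoglycans, Hspg2 (perlecan) had a log2 fold change of 0.05, Agrn (agrin) of 0.10 and Col18a1, the source of endostatin, of 0.15, and none was called (adjusted p = 0.896, 0.710 and 0.573, edgeR). Of all 12 basement membrane genes, 2 were called, both lower, where 0.809% of all genes were, and 4 were lower without overlap, where 8.48% of all genes were.

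Epithelia and vessels carry most basement membranes, so their markers were read beside these values. The 10 endothelial markers had no gene called, with a summed CPM of 264 to 332 in wildtype and 282 and 344 in Cdx2P:Nr6a1. Of the 10 surface ectoderm markers, 9 had a positive log2 fold change and Krt18 was called higher, with a summed CPM of 297 to 396 in wildtype and 441 and 395 in Cdx2P:Nr6a1. Gut endoderm had no marker called among the 8 tested, at 333 to 436 CPM in wildtype and 496 and 416 in Cdx2P:Nr6a1. Notochord had 0 called of 6, at 60.0 to 81.0 CPM in wildtype and 87.8 and 71.1 in Cdx2P:Nr6a1. An unadjusted p under 0.05 was reached by 0 endothelial, 1 gut endoderm and 1 notochord marker, and DESeq2 and the likelihood ratio test called 0 of them. Of the surface ectoderm markers 3 reached it, all higher, where 5.54% of all genes did in that direction. DESeq2 and the likelihood ratio test both called Krt8 and Krt18. The sums of these 4 lists were not below their wildtype range in either Cdx2P:Nr6a1 library, and their part in the result was not tested.

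Col13a1 was lower in Cdx2P:Nr6a1 and was the only gene of the 5 called genes to keep its call under all 13 alternatives. It lies on chromosome 10 from 61838236 to 61979108 on the minus strand and encodes a collagen that spans the cell membrane. Its CPM was 61.2, 64.0, 62.8 and 64.8 in wildtype and 44.5 and 40.2 in Cdx2P:Nr6a1. The wildtype libraries were close together, with a coefficient of variation of 2.49%, and both transgenic libraries lay far below. The mean fell from 63.2 ± 1.57 (SD, n = 4) to 42.4 ± 3.08 (SD, n = 2) CPM, a log2 fold change of -0.58 ± 0.06 (SE, FDR = 0.00223, edgeR). Over the alternatives the FDR was 1.94e-15 to 0.0345.

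The 250 bases before the start of Col13a1, Adamts9 and Adamtsl2 are printed because these are the called genes with the largest changes, and their starts were found in RefSeq (GRCm38.p6). Capitals mark matches, on either strand, to the 6 letters of the TATA box (TATAAA) or the GC box (GGGCGG, or CCGCCC on the other strand). The first window is chr10:61979109-61979358, minus strand, with TATAAA 237 bases before the start.
Col13a1: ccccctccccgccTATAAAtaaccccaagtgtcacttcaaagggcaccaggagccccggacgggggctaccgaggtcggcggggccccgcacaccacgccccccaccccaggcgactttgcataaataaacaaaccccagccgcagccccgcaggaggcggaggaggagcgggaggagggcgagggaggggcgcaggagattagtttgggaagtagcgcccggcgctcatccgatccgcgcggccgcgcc
The second is chr6:92943535-92943784, minus strand, with CCGCCC 7 bases before the start.
Adamts9: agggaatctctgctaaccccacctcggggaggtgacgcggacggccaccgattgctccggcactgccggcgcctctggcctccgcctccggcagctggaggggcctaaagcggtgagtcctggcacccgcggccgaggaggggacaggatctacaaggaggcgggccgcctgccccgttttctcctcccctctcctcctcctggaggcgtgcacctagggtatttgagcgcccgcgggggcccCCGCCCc
The third is chr2:27079129-27079378, plus strand, with GGGCGG 83 and TATAAA 30 bases before the start.
Adamtsl2: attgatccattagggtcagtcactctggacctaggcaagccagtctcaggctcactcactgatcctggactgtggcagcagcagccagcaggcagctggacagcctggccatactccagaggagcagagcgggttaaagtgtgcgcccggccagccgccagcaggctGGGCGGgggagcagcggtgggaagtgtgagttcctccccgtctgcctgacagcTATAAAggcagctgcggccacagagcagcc

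Of the 47 genes, 32 had a start in the RefSeq table, with 39 windows in all, and Lama1 was not among them. Each window counted here ran from 250 bases before the start to 50 bases after it, longer than the stretches printed. AGGTCA, the DNA element that Nr6a1 and many other nuclear receptors recognise, was searched on both strands. It stood in 3 of the 39 windows (7.69%, of Col11a1, Col9a1 and Postn), and in 14.0% of all 32851 windows of this length. The GC box stood in 69.2% of the 39 windows and 32.7% of all, the TATA box in 17.9% and 12.4%, and CCAAT in 30.8% and 33.8%. None of the 4 called genes with a window had AGGTCA in it. These are matches of letters and were not tested as binding sites.

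The other collagens outside the fibrils were low, and the quasi-likelihood test called none of those it tested. Col26a1 had 14.5, 13.7, 13.3 and 15.7 CPM in wildtype and 12.9 and 12.3 in Cdx2P:Nr6a1, lower without overlap, with a log2 fold change of -0.19 (adjusted p = 0.600, edgeR). Col6a1 and Col6a2, chains of the beaded filaments around cells, had log2 fold changes of -0.14 and -0.10. Col9a1 and Col12a1, which sit on the surface of fibrils, stood at 1.32 to 2.06 and 10.52 to 17.5 CPM in wildtype, with log2 fold changes of 0.29 and 0.10. Col14a1, of the same fibril-associated class, did not pass the filter. Of the 2 alternatives that tested it, filterByExpr did not call it and the fit without a filter called it lower. Its counts were 105, 95, 104 and 85 in wildtype and 15 and 83 in Cdx2P:Nr6a1, that is 1.70 to 2.14 CPM against 0.340 and 1.23 CPM. Both were below all wildtype libraries, replicate 1 by more than replicate 2.

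Of the 5 listed genes of the Adamts family, 1 protease was lower and 1 related glycoprotein was higher in Cdx2P:Nr6a1 tailbuds. Adamts9, on chromosome 6 from 92772699 to 92943492, encodes a secreted protease that cuts versican. Its CPM was 234, 221, 197 and 182 in wildtype and 133 and 131 in Cdx2P:Nr6a1. Both transgenic libraries lay below every wildtype library, at a ratio of 1.02 to each other. The mean fell from 208 ± 23.1 (SD, n = 4) to 132 ± 1.76 (SD, n = 2) CPM, a log2 fold change of -0.66 ± 0.09 (SE, FDR = 0.0116, edgeR). The call was lost only without a Cdx2P:Nr6a1 library, where the log2 fold change stayed between -0.73 and -0.61 over the 6 libraries left out in turn and the adjusted p rose to at most 0.105. Over all 13 alternatives its adjusted p was 1.61e-24 or more. Of its 15048 exon bases, 1805 are shared with A730049H05Rik and Gm15737 on the opposite strand, which had 76 and 13 counts over the 6 libraries.

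Vcan, which encodes the substrate versican, was not called. It had 622, 697, 644 and 567 CPM in wildtype and 606 and 643 in Cdx2P:Nr6a1. Its log2 fold change was -0.02 ± 0.08 (SE, FDR = 0.965, edgeR) and the groups overlapped. Adamts9 over Vcan, both per kb, was 0.361, 0.305, 0.294 and 0.309 in wildtype and 0.212 and 0.196 in Cdx2P:Nr6a1. The groups did not overlap (exact two-sided permutation test, p = 0.0667, the smallest possible, and 0.111 adjusted over 5 ratios).

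Adamtsl2, on chromosome 2 from 27079379 to 27108981, resembles the Adamts proteins but has no protease domain and binds fibrillin microfibrils. It had 219, 199, 212 and 174 CPM in wildtype and 280 and 260 CPM in Cdx2P:Nr6a1. Both transgenic libraries were above all wildtype libraries. The mean rose from 201 ± 19.7 (SD, n = 4) to 270 ± 14.4 (SD, n = 2) CPM, a log2 fold change of 0.42 ± 0.08 (SE, FDR = 0.0460, edgeR). The call was lost with the filterByExpr filter and without wildtype replicate 2 or 3 or either Cdx2P:Nr6a1 library, and the 13 alternatives spanned an FDR of 6.85e-10 to 0.308. The log2 fold change stayed between 0.35 and 0.47.

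The other members of the family were expressed at lower levels. Adamts1, another protease that cuts versican, had 12.98, 14.3, 14.5 and 14.5 CPM in wildtype and 15.8 and 17.1 in Cdx2P:Nr6a1, higher without overlap (log2 fold change 0.22, FDR = 0.429, edgeR). Adamts5, which cuts aggrecan and versican, had a log2 fold change of 0.32 at 2.95 to 4.74 CPM in wildtype, and Adamts18 one of 0.08 at 7.49 to 10.7 CPM. Neither passed (adjusted p = 0.696 and 0.929, edgeR), and the groups overlapped.

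**Figure D4:**
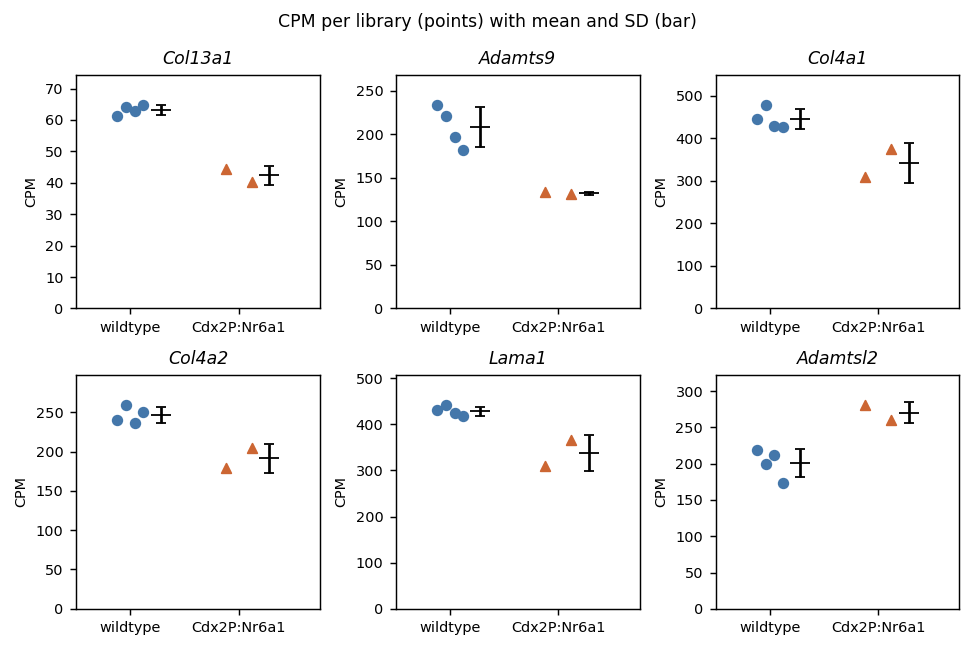
CPM of the 5 called genes and of Col4a1 in each library, with circles for wildtype, triangles for Cdx2P:Nr6a1, and the mean with its SD as the bar beside them. The 2 Cdx2P:Nr6a1 libraries lie outside the wildtype range in every panel, above it for Adamtsl2 (280 and 260 CPM) and below it for the others.

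By edgeR's quasi-likelihood test 0 of the 7 fibrillar collagens were called, and DESeq2 called 2, Col1a2 and Col2a1. An unadjusted p under 0.05 was reached by 2 that were higher and 1 that was lower (5.54% and 4.99% of all genes). Col2a1, the main collagen of cartilage and of the notochord sheath, came closest. It lies on chromosome 15 from 97975602 to 98004695 and had 84.3, 96.3, 83.7 and 89.5 CPM in wildtype and 108 and 145 in Cdx2P:Nr6a1. The groups did not overlap, and Cdx2P:Nr6a1 replicate 2 was the higher. The log2 fold change was 0.51 ± 0.11 (SE, FDR = 0.0577, edgeR). Without Cdx2P:Nr6a1 replicate 2 Col2a1 had a value of 0.27, and without replicate 1 one of 0.72. The likelihood ratio test, DESeq2, the fit without a filter and the fit without Cdx2P:Nr6a1 replicate 1 called it, with an adjusted p of 1.34e-15 to 0.281 over the 13 alternatives. Notochord markers had no gene called.

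Col1a2, a chain of collagen I, had 83.7, 100, 86.5 and 67.2 CPM in wildtype and 114 and 110 in Cdx2P:Nr6a1. It was higher without overlap but did not pass (log2 fold change 0.40 ± 0.12, FDR = 0.198, edgeR), although DESeq2 called it (FDR = 0.0186). Its partner chain Col1a1 did not show this order. Col1a1 had 32.9, 78.9, 36.4 and 16.4 CPM in wildtype and 28.6 and 31.4 in Cdx2P:Nr6a1, both within the wildtype range. Among the 13 alternatives, only the fit without a filter called Col1a1 (FDR = 1.98e-07, edgeR). Per kb, Col1a1 over Col1a2 was 0.743, 1.49, 0.797 and 0.462 in wildtype and 0.476 and 0.541 in Cdx2P:Nr6a1, so the ratio of the chains differed between embryos of the same genotype.

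Of the minor fibrillar chains, Col5a1 was lower without overlap, at 83.3, 86.1, 76.0 and 79.1 CPM in wildtype and 69.2 and 75.6 in Cdx2P:Nr6a1. It did not pass (log2 fold change -0.17, FDR = 0.374, edgeR). Col5a2 had 120 CPM in Cdx2P:Nr6a1 replicate 1, above the wildtype range of 86.0 to 99.3 CPM, and 87.5 CPM in replicate 2, within it. Col11a1 had a log2 fold change of 0.10 and overlapped. Collagen V and XI nucleate fibrils of collagen I and II.

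Fn1 lies on chromosome 1 from 71585520 to 71653200. It had 2084, 2205, 2071 and 1956 CPM in wildtype and 1685 and 1962 in Cdx2P:Nr6a1. Replicate 1 of Cdx2P:Nr6a1 was below all wildtype libraries and replicate 2 lay just above the lowest of them. The log2 fold change of -0.19 ± 0.07 (SE, FDR = 0.286, edgeR) did not pass. The fibulins Fbln1 and Fbln2, glycoproteins of basement membranes and elastic fibres, were near the wildtype mean, with log2 fold changes of 0.04 and 0.07. Fbn1, which encodes a fibrillin of microfibrils, had a log2 fold change of 0.10. Of its exon bases, 20.1% are shared with Gm9913 on the opposite strand, which had 23 counts in all.

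Fbn2, the fibrillin most used in embryos, differed between the 2 transgenic embryos more than between genotypes. It had 101, 121, 119 and 129 CPM in wildtype and 95.0 and 193 in Cdx2P:Nr6a1. Replicate 1 was thus below and replicate 2 above every wildtype library, a ratio of 2.03 between them. It was not called (log2 fold change 0.30 ± 0.22, FDR = 0.779, edgeR), although the fit without a filter called it (FDR = 4.31e-05). Without replicate 2 it was -0.31 and without replicate 1 it was 0.72, a value that passed. Col2a1 and Lama4 were also higher in replicate 2, with ratios of 1.35 and 1.60.

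The matricellular genes held the most variable gene of the list. Sparc, which encodes a collagen-binding glycoprotein, was abundant and even, with 157, 180, 165 and 163 CPM in wildtype and 168 and 180 in Cdx2P:Nr6a1. Postn (periostin, a glycoprotein of fibrous mesenchyme) had 4.68, 19.4, 8.53 and 0.734 CPM in wildtype and 4.47 and 1.91 in Cdx2P:Nr6a1. The wildtype libraries alone spanned a ratio of 26.4. Its log2 fold change of -1.43 had a standard error of 0.92 (adjusted p = 0.709, edgeR) and lay between -2.14 and -0.60 with a library left out. Among the 13 alternatives, only the fit without a filter called Postn (FDR = 2.07e-17, edgeR). Tnc, the matricellular tenascin C, had 34, 47, 49 and 34 counts in wildtype and 38 and 75 in Cdx2P:Nr6a1, and did not pass the filter. The alternatives that tested Tnc, filterByExpr and the fit without a filter, did not call it.

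The same wildtype libraries stood apart for other genes of fibrous mesenchyme. Col3a1, a collagen of loose connective tissue, had 5.76, 20.8, 9.62 and 2.25 CPM in wildtype, a ratio of 9.28 between the highest and the lowest, and 6.29 and 9.87 CPM in Cdx2P:Nr6a1. For Col1a1 this ratio was 4.81. Lum and Dcn, small proteoglycans that bind collagen fibrils, were below the filter and are named after their values were seen. Lum had 1.26, 4.23, 1.93 and 0.245 CPM in wildtype, and Dcn had 0.732, 1.81, 0.805 and 0.222 CPM. For all 5 genes wildtype replicate 2 was the highest and wildtype replicate 4 the lowest wildtype library. Both Cdx2P:Nr6a1 libraries lay within the wildtype range for each of them. Other proteoglycans of the same list as Lum and Dcn did not follow this order. Bgn had 18.0, 18.7, 19.7 and 19.3 CPM in wildtype and Fmod 7.04, 6.16, 5.88 and 6.58 CPM. Prelp and Ogn, under 1 CPM, did not follow it either.

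The spread between wildtype embryos can be set beside that of all genes. The highest wildtype library was at least 3 times the lowest for 3 of the 45 genes (6.67%) and for 0.479% of all genes tested. The median coefficient of variation in wildtype was 7.89% for the 45 genes and 5.85% for all. Yet 12 of the 45 had one under 5%, among them Col13a1, Col4a2, Lama1, Lamb1, Lamc1, Nid2 and Fn1, whereas 40.6% of all genes did. Wildtype replicate 2 was the highest wildtype library for 24 of the 45 genes and wildtype replicate 4 the lowest for 17. The Cdx2P:Nr6a1 libraries differed by at least 1.5 times for 4 of the 45 (8.89%), Col3a1, Lama4, Fbn2 and Postn, and for 2.18% of all genes.

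**Figure D5:**
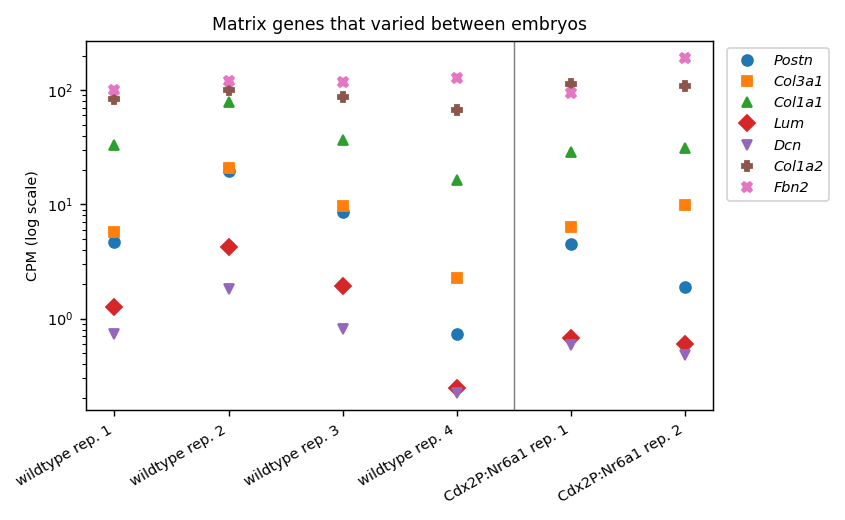
CPM on a log axis of Postn, Col3a1, Col1a1, Lum, Dcn, Col1a2 and Fbn2 in each library, with a line between the genotypes. Postn runs from 0.734 to 19.4 CPM within wildtype, and wildtype replicates 2 and 4 hold the highest and the lowest wildtype points of the first 6 genes, whereas Fbn2 parts the 2 Cdx2P:Nr6a1 libraries at 95.0 and 193 CPM.

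The quasi-likelihood test called none of the remaining soft-matrix and remodelling genes. Has2, the main hyaluronan synthase of the embryo, had 93.7 to 121 CPM in wildtype and 116 and 111 in Cdx2P:Nr6a1 (log2 fold change 0.07). Hapln1, the link protein that fixes versican to hyaluronan, had 103, 110, 131 and 130 CPM in wildtype and 155 and 121 in Cdx2P:Nr6a1 (log2 fold change 0.21, FDR = 0.632, edgeR). Without a filter Hapln1 was called (FDR = 0.0203, edgeR). Both genes overlapped between genotypes. Mmp2, a gelatinase that also cuts collagen IV, had 167, 176, 174 and 167 CPM in wildtype and 170 and 200 in Cdx2P:Nr6a1. Mmp14, the membrane protease that activates Mmp2, had 93.4 to 96.5 CPM in wildtype and 95.1 and 104 in Cdx2P:Nr6a1. Their log2 fold changes were 0.11 and 0.07 (adjusted p = 0.691 and 0.788, edgeR).

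The inhibitors Timp1 and Timp2 both had a log2 fold change of -0.04 and overlapped. Timp3, which also inhibits Adamts proteases, was lower without overlap, with 32.6, 37.1, 39.5 and 32.7 CPM in wildtype and 31.9 and 31.7 in Cdx2P:Nr6a1. At a log2 fold change of -0.17 it did not pass (FDR = 0.552, edgeR). Of its exon bases, 21.3% are shared with Syn3 on the opposite strand, which had 361 counts over the 6 libraries. Of the 5 Mmp and Timp genes, 0 were called and 0 had an unadjusted p under 0.05 by edgeR, and DESeq2 and limma voom also called 0.

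Genes that make, bind or accompany the matrix were read from the same fit, in lists also chosen with earlier results of these data known. Of 157 such genes, 102 were tested and 6 were called, all of them lower in Cdx2P:Nr6a1, where 0.809% of all genes were called lower and 1.59% in either direction. Of the 26 tested that modify, cut or crosslink collagen, such as prolyl and lysyl hydroxylases and lysyl oxidases, edgeR called 0, and 4 had an unadjusted p under 0.05. Their median log2 fold change was -0.01. The likelihood ratio test and DESeq2 each called 1 of them, Pcolce2, and limma voom 0.

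Of 25 integrins and other matrix receptors tested, 2 were called lower. Itga1, whose integrin binds collagen IV and other collagens, had 42.7, 40.9, 48.6 and 43.3 CPM in wildtype and 31.0 and 33.9 in Cdx2P:Nr6a1. The log2 fold change was -0.44 ± 0.08 (SE, FDR = 0.0275, edgeR). Itga4, whose integrin binds fibronectin, had 9.56, 9.89, 10.6 and 9.79 CPM in wildtype and 4.99 and 7.04 in Cdx2P:Nr6a1, a log2 fold change of -0.73 ± 0.14 (SE, FDR = 0.0399, edgeR). For both genes the groups did not overlap. Itga4 lost its call without any 1 wildtype library or Cdx2P:Nr6a1 replicate 1, and Itga1 without wildtype replicate 4 or either Cdx2P:Nr6a1 library.

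Of 14 tested genes of hyaluronan turnover and other proteoglycans, 2 were called lower. Spock2, a secreted heparan sulphate proteoglycan, had 320, 315, 298 and 282 CPM in wildtype and 213 and 226 in Cdx2P:Nr6a1 (log2 fold change -0.47, FDR = 0.00967, edgeR). Fmod (fibromodulin, which binds collagen fibrils) had 7.04, 6.16, 5.88 and 6.58 CPM in wildtype and 2.27 and 3.29 in Cdx2P:Nr6a1, a log2 fold change of -1.20 ± 0.17 (SE, FDR = 0.0116, edgeR). Each lost its call only without Cdx2P:Nr6a1 replicate 1 among the 13 alternatives. Of the 40 other tested genes of the collagen, laminin, Adamts, Mmp and Timp families, 2 were called lower. These 40 include Adamts2, Adamts3 and Adamts14, which were also counted among the genes that modify, cut or crosslink collagen. The protease Adamts17 had 59.7, 60.3, 51.4 and 52.2 CPM in wildtype and 38.8 and 39.0 in Cdx2P:Nr6a1 (log2 fold change -0.53, FDR = 0.0141, edgeR). Col8a1, a collagen of vessel walls and the eye, had 5.08, 4.26, 5.44 and 4.71 CPM in wildtype and 2.72 and 2.66 in Cdx2P:Nr6a1 (log2 fold change -0.86, FDR = 0.0208, edgeR). Both were lost without either Cdx2P:Nr6a1 library, and Col8a1 also without wildtype replicate 3.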

How the data were processed

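RNA from 1 tailbud per embryo was made into poly(A) libraries with a stranded kit. The authors aligned the reads with STAR to mm10 and deposited raw counts per gene with exon coordinates and lengths, without normalisation (tools and build per the labels). The counting program is not given in the sources used here. Of 4002 exon intervals of the 47 genes, 4001 were identical to GENCODE M21. More than 10 counts were found for 0 of 446 genes that lie entirely beneath opposite-strand exons and for 37.5% of 42770 genes free of overlap, so the counting did not use strand. A second deposited table of the authors' own comparison (log2 fold changes, FDR, p-values, counts and CPM of the called genes) was not used. The table held 0 columns of other samples.

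CPM were computed from the column totals and divided by exon length in kb for levels between genes. The 12733 genes with more than 10 counts and more than 2 CPM in at least 2 libraries were fitted with edgeR 4.0.16 (R 4.3.3): TMM normalisation (factors 0.992 to 1.01), glmQLFit and glmQLFTest over all 6 libraries, Benjamini-Hochberg adjustment, and 0.05 as the threshold. Standard errors are the log2 fold change over the square root of F. The common biological coefficient of variation was 9.40%. On simulated data the fit recovered 67 of 100 genes changed by 0.5 in log2 and 94 of 98 changed by 1. It also called 17 genes that had not been changed. P-values measure the spread between embryos. Ratios were compared with an exact two-sided permutation test over 15 arrangements.

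The 14 alternatives were edgeR's likelihood ratio test, DESeq2 1.42.0, limma 3.58.1 voom, RLE normalisation, library size only, filterByExpr, no filter, the replicate block, and each of the 6 libraries left out; 13 of them, without the block, stand beside adjusted p-values. With 1 Cdx2P:Nr6a1 library left, it is assumed to vary like wildtype. All 47 genes are named. Of related genes, those called are named, up to 5 per direction and list, and of 9 marker lists those called. The members and lists were chosen with earlier results of these data known. Of the somite and sclerotome, macrophage and erythroid markers, edgeR called 0 (1, 1 and 0 at an unadjusted p under 0.05), DESeq2 and limma voom called 0, and the likelihood ratio test called Lyz2. Meox2, Uncx, Nkx3-2 and Mesp2 were under 1 CPM in every library. The related gene Cemip2 had no match by symbol.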

Additional observations from a re-analysis of the deposited data

Results flagged for a closer look

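In groups of 4 libraries, a lone library far from the other 3 was looked for among the 47 genes in wildtype, and 2 were found, where chance flags about 1 in 20 groups. Nid2 stood at 208.7 CPM in wildtype replicate 2, above 197 to 199 CPM in the others. Adamts1 stood at 12.98 CPM in wildtype replicate 1, below 14.3 to 14.5 CPM in the others. The quasi-likelihood test called neither gene, and DESeq2 called Nid2 (FDR = 0.0363).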

How the results depend on the processing

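Of the 45 matrix genes, 5 were called, and 9 with DESeq2 and 10 with the replicate block. Without a filter on low counts all 47 were tested and 14 were called, Col14a1 among them. Each of these sets held all 5. With a library left out the number was 2 to 4. Those called higher numbered 1, but 2 with the likelihood ratio test, 3 with DESeq2, 0 with filterByExpr, 6 of the 47 without a filter, 3 with the block and 0 to 2 with a library left out. Those called lower numbered 4, but 8 of the 47 without a filter (Col14a1 among them), 7 with the block and 1 to 4 with a library left out. Of all genes 203 were called, and 401 with the likelihood ratio test, 477 with DESeq2, 876 without a filter, 442 with the block and 61 to 175 with a library left out. Of related genes 6 were called, and 11, 13, 21 and 12 in the same order and 0 to 5 with a library left out. The causes were not tested. The median log2 fold change of the 45 genes lay between -0.028 and 0.061 with a library left out. Replicate numbers are shared only by name (same-number deviations correlated at 0.205 and -0.151), so the replicate block pairs nothing known. No gene that was called changed sign. Among uncalled genes, limma voom turned Col3a1 to 0.11, and the replicate block turned Col12a1 to -0.11, Lamb1 to -0.021 and Timp1 to 0.045. With a library left out the log2 fold change spanned 0 for Col1a1 (-0.73 to 0.061), Col3a1 (-0.63 to 0.45), Col5a2 (-0.10 to 0.34), Col12a1 (-0.21 to 0.35), Lama4 (-0.33 to 0.36), Lamb1 (-0.015 to 0.057), Lamc1 (-0.014 to 0.087), Nid1 (-0.26 to 0.086), Hspg2 (-0.014 to 0.10), Fbn1 (-0.09 to 0.27), Fbn2 (-0.31 to 0.72), Fbln2 (-0.0056 to 0.14), Vcan (-0.08 to 0.025), Mmp2 (-0.023 to 0.23), Mmp14 (-0.003 to 0.14) and Timp2 (-0.079 to 0.001). Of the results for single genes under the alternatives, 635 kept direction and side, 31 lost a call, 23 gained one and 25 changed sign. With 2 transgenic libraries the precision is low, so an uncalled gene is not shown to be equal.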
